A study of Mus musculus with 931 samples.

Results

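Transcripts of 9 genes of the ATF4 pathway and of serine synthesis were followed through the maturation of mouse pancreatic β and α cells. The genes were Atf4, Atf5, Ddit3, Trib3, Chac1, Asns, Psat1, Phgdh and Sesn2. They were chosen by symbol, and all 9 were found among the 40824 gene rows of the deposited read count tables and passed the filter on low counts in each fit. Bulk RNA sequencing covered 7 stages of sorted β cells with 2 libraries per stage, 14 in all: a late embryonic stage (E17.5), the day of birth (P0) and postnatal days 3, 9, 15, 18 and 60 (P3 to P60). Each bulk library was made from poly(A) RNA of a pool of sorted cells. Full-length single-cell libraries (Smart-seq2) covered 538 β cells in 25 batches over the same stages and 328 α cells in 20 batches over 6 stages (E17.5, P0, P9, P15, P18 and P60). A batch, the labelled preparation from which cells were taken, served as the replicate, and its cells' reads were summed. The β cells came from Ins1-RFP mice, a reporter under the insulin 1 promoter on a mixed C57BL/6 and C3H background. The α cells came from Gcg-Cre; Rosa-RFP mice on a mixed C57BL/6, CBA/J and C3H background, in which Cre driven by the glucagon promoter switches on the reporter. No group was treated, so stage and cell type were the comparisons, and strain and cell type cannot be told apart between β and α cells. Single cells were either sorted by flow cytometry (FACS-sorted) or picked by hand (manually-picked). A further 21 β cells in 2 FACS-sorted batches carried an enriched label, which names proliferative cells enriched by single-cell RT-qPCR. Another 26 cells were labelled as expressing several hormones, and 4 came from Ngn3-GFP mice at P0. The labels name no animals, so every p-value measures the spread between these libraries or batches, which may be technical.

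Cells slow general protein synthesis when a kinase phosphorylates the initiation factor eIF2α, whether the trigger is unfolded protein in the endoplasmic reticulum (ER), missing amino acids, haem deficiency or viral RNA. Under those conditions the mRNA of the transcription factor ATF4 is translated more efficiently through upstream reading frames, and ATF4 then activates genes of amino acid supply, redox balance and cell death. ATF5 is a related factor under similar translational control, and it also acts in the mitochondrial stress response. Ddit3 encodes CHOP, a partner of ATF4 in prolonged stress, and Trib3 encodes a pseudokinase that is induced by both factors and restrains them. Chac1 encodes an enzyme that degrades glutathione, and Asns makes asparagine. Phgdh catalyses the entry step of serine synthesis from a glycolytic intermediate, and Psat1 the step that follows. Sesn2 encodes a sestrin, a leucine-binding inhibitor of mTORC1 signalling. The β cell is known for its heavy load of secretory protein, and because ATF4 and ATF5 are set mainly at translation, transcript levels do not measure the proteins.

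Sequences around transcription starts are shown for the members whose windows held the core of a C/EBP-ATF response element, the site at which ATF4 pairs with C/EBP factors, because these members include Chac1 and Asns, which rose in bulk β cells. The core was searched as TGATGNAA on both strands, where N is any base, in RefSeq windows of 300 bases (GRCm38.p6) that ran from 250 bases before to 50 bases after each start. All 9 members matched the table, with 11 windows, and 3 held the core, against 3.97% of all 32851 windows (1304). The core began at base -23 in Asns on the gene's own strand, and at base -193 in Chac1 on the opposite strand, counted from the start. In Trib3 it lay after the start, at base 15, on the opposite strand. Each stretch reads 5′ to 3′ along the gene's strand, with the core as it reads on that strand in capitals, at chr6:7693210-7693282 (minus strand), chr2:119350999-119351106 (plus) and chr2:152344030-152344055 (minus).
Asns: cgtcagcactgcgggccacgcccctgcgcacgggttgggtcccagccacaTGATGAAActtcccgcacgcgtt
Chac1: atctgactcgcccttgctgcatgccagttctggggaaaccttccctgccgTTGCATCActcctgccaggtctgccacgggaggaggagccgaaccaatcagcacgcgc
Trib3: agctcaggtTTACATCAgccgggcgg
The windows of Atf4, Atf5, Ddit3, Psat1, Phgdh and Sesn2 did not hold these letters. Of other ATF4 targets with an entry, 8 of 20 held the core, as did 5 of 12 cytosolic aminoacyl-tRNA synthetases. None of the 12 enzymes of serine, glycine and one-carbon metabolism or the 13 ER chaperones with an entry held it. A match describes letters only, and binding was not measured.

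In the GRCm38 annotation the members lie on chromosomes 15 (Atf4, 80255184 to 80257541, plus strand), 7 (Atf5, 44812256 to 44816658, minus) and 10 (Ddit3, 127290774 to 127296288, plus). Trib3 spans 152337422 to 152344032 (minus) and Chac1 119351229 to 119354381 (plus) on chromosome 2. Asns lies on chromosome 6 (7675169 to 7693254, minus), Psat1 on 19 (15904678 to 15947337, minus), Phgdh on 3 (98313170 to 98339990, minus) and Sesn2 on 4 (132492032 to 132510501, minus). Reads were counted over whole genes. Exons of other genes overlapped 4.11% of the exon bases of Atf5 and 10.9% of those of Ddit3, partly on the opposite strand. Phgdh had 19 near-identical copies (at least 90% identity over 200 bases), and its values are uncertain. The 8 copies in the table held 20 reads in bulk against 6373 for Phgdh, and 943 against 9647 in the single-cell batches. Reads that matched the other copies, or several at once, were not analysed here.

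Bulk libraries held between 10.26 and 21.44 M gene reads (M, 1e+06 reads) and single cells 0.5207 to 1.8 M, with a median of 7640 genes detected per cell. Batches held 5 to 39 cells and 5.96 to 49.14 M reads. Values are counts per 1e+06 reads (CPM) scaled by the trimmed mean of M-values (TMM), a factor that keeps a few very abundant transcripts, such as insulin, from setting the level of all the others. Cell identities followed the labels: Ins2 ranged from 109378 to 516276 CPM in β batches against 21.8 to 4469 in α batches, and Gcg from 0 to 244 against 65315 to 576188. In bulk, the summed level of 10 acinar markers differed strongly between stages, with means of 2719 CPM at E17.5, 483 at P0, 38729 at P9 and 33826 at P60 and all 10 detected throughout. Other markers fell in bulk from E17.5 to P60: 4 of 6 mesenchymal genes (summed means 112 and 5.58 CPM), 3 of 5 endothelial (39.4 and 14.2), 4 of 6 duct (490.2 and 299) and 3 of 5 erythroid (28.9 and 0.972). In the single-cell β batches the acinar sum stayed at or below 143 CPM. Xist, transcribed from the inactive X chromosome of females, was at 517 to 609 CPM in both E17.5 bulk libraries and under 1 in both at P60. All 13 proliferation genes fell in bulk from E17.5 to P60. In single β cells none of the 13 was called over that interval (median log2 change -0.43). Mki67 at E17.5 was at 0 to 5.39 CPM in the single β batches, against 183 and 101 in the bulk libraries. Between E17.5 and P60 in bulk, sex as read from Xist and stage cannot be told apart. The part of acinar RNA and of sex in the bulk results was tested only as far as the covariate fits given beside them, and that of proliferation and the other markers was not tested.

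In bulk β cells, Atf5, Chac1 and Asns rose from E17.5 to P60, while transcripts of Atf4 itself, Ddit3, the serine pathway and Sesn2 did not pass the test (edgeR's quasi-likelihood test with Benjamini-Hochberg adjustment over 16086 genes; a gene was called at an adjusted p under 0.05). The 3 of 9 members called stand beside 29.1% of all genes tested. With whole populations, more cells expressing a gene and more RNA per cell cannot be told apart.

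**Figure D1:**
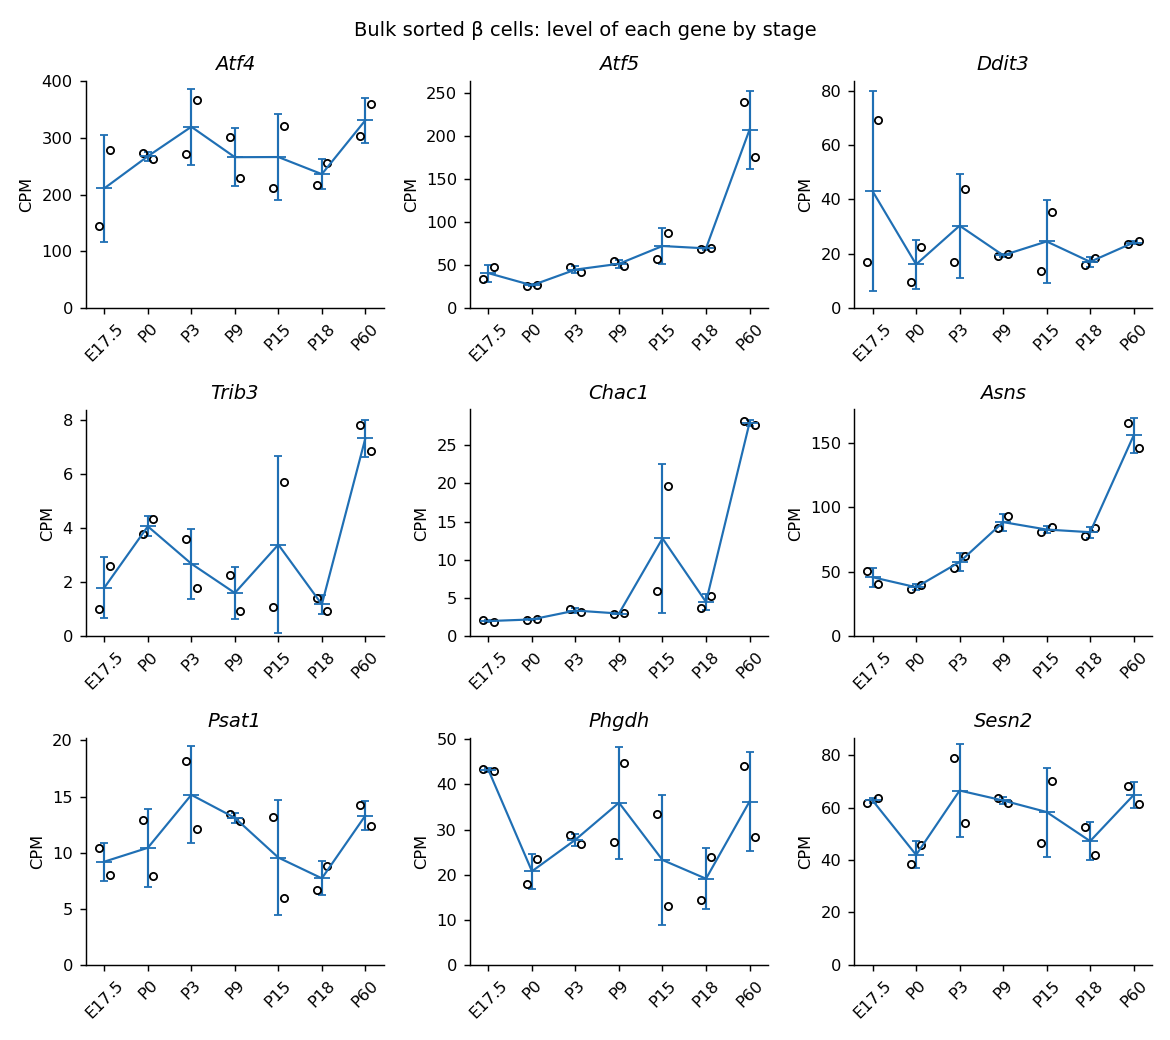
Level of each of the 9 genes in bulk sorted β cells (CPM, y axis) by stage (x axis), with circles for the 2 libraries of a stage and bars for the mean ± SD. Atf5, Chac1 and Asns were highest in both P60 libraries, and no stage stands apart for Psat1 or Sesn2.

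Among the transcription factors, Atf5 measured 33.5 and 47.3 CPM at E17.5, 25.4 and 27.2 at P0, 47.2 and 41.9 at P3, 54.4 and 48.2 at P9, 57 and 86.9 at P15, 68.2 and 70.2 at P18, and 239 and 175 at P60. The P60 libraries stood far above those of every earlier stage. The rise from E17.5 was 5.12-fold (log2 change 2.36, SE 0.22, adjusted p = 4.64e-05). Atf4 measured 144 and 278 CPM at E17.5 and 303 and 359 at P60, with all other libraries between 212 and 367. The E17.5 libraries differed from each other about as widely as the stages did, and the change was 0.65 on the log2 scale (95% interval 0.07 to 1.23, adjusted p = 0.122). Without the higher E17.5 library (replicate 2), Atf4 was called as well (log2 change 1.2, adjusted p = 0.0225). Ddit3 also split at E17.5, at 16.9 and 69.1 CPM, and stood at 23.7 and 24.5 at P60, within that range (log2 change -0.83, adjusted p = 0.361).

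The feedback regulator Trib3 stood at 0.997 and 2.6 CPM at E17.5 and 7.79 and 6.84 at P60. Its P60 libraries were its highest of the series, yet the change narrowly missed the threshold in edgeR (log2 change 2.03, SE 0.72, adjusted p = 0.0575) and passed it in DESeq2 (2.04, adjusted p = 0.022). The glutathione-degrading enzyme Chac1 stood at 2.1 and 1.91 CPM at E17.5, 2.19 and 2.25 at P0, 3.6 and 3.16 at P3, 2.94 and 3.04 at P9, 5.91 and 19.7 at P15, 3.77 and 5.23 at P18, and 28.2 and 27.6 at P60. The P60 values were the highest in both libraries, and P15 replicate 2 stood between them and the rest. That library also had the highest Gcg of the bulk series (14711 CPM), and the part of α-cell RNA in its Chac1 level was not tested. Chac1 rose 13.8-fold from E17.5 to P60 (log2 change 3.79, SE 0.44, adjusted p = 0.000198), the highest fitted fold among the 9 members here.

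Asparagine synthetase (Asns) measured 51 and 40.6 CPM at E17.5, 36.4 and 39.7 at P0, 52.9 and 62.3 at P3, 83.8 and 93.1 at P9, 80.9 and 84.5 at P15, 77.7 and 83.6 at P18, and 165 and 146 at P60. Libraries up to P3, from P9 to P18 and at P60 occupied 3 ranges that did not overlap. From E17.5 to P60 the rise was 3.4-fold (log2 change 1.76, SE 0.15, adjusted p = 2.03e-05). The serine synthesis genes showed no such steps. Psat1 ranged from 5.92 to 18.2 CPM over all libraries, with a change of 0.53 (95% interval -0.20 to 1.25, adjusted p = 0.318). Phgdh ranged from 13.1 to 44.7 CPM and was as high in both E17.5 libraries (43.5 and 42.9) as in P60 replicate 1 (44), with a change of -0.26 (95% interval -1.03 to 0.52, adjusted p = 0.67). Sesn2 lay between 38.3 and 79 CPM, and its change was 0.05 (95% interval -0.38 to 0.48, adjusted p = 0.898).

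Calls of Atf5, Chac1 and Asns at P60 against E17.5 held in each of 6 alternative fits and with each of the 4 libraries left out. With the summed acinar level as a covariate their adjusted p-values were 0.0147, 0.0262 and 0.0167, and with Xist as a covariate 0.00153, 0.00558 and 0.00101. Because Xist was high in both E17.5 libraries and low in both at P60, the Xist fit cannot separate sex from stage here. Its slope rested mainly on stages whose libraries differed in Xist, such as P0, P3 and P9. Relative abundance per kilobase of transcript placed Atf4 first at both ages, at 122 and 192 CPM per kb. Atf5 moved from the fifth place at E17.5 (22.3 CPM per kb) to the next place after Atf4 at P60 (114), and Asns stood at 22.7 and 77.2. Trib3 was last at both ages (0.887 and 3.61).

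Between neighbouring windows of development, none of the 9 members was called from E17.5 to P0 with edgeR or DESeq2, with 4 at an unadjusted p under 0.05 (6.34% of all genes called). From P0 to P9, Atf5 rose by 0.97 on the log2 scale (SE 0.23, adjusted p = 0.0239) and Asns by 1.22 (SE 0.15, adjusted p = 0.000988), the 2 members called, beside 8.98% of all genes. With the acinar covariate neither was called (adjusted p = 1), at log2 changes of 1.32 for Atf5 and 0.57 for Asns. The call of Atf5 also ended without any 1 of the 4 libraries (adjusted p = 0.067 to 0.153). From P9 to P60, Atf5 rose by 2.01 (SE 0.22, adjusted p = 0.000719), Chac1 by 3.22 (SE 0.43, adjusted p = 0.00194) and Asns by 0.82 (SE 0.15, adjusted p = 0.00574), beside 16.2% of all genes. Asns missed the threshold there without P9 replicate 1 (adjusted p = 0.0586). A test of any difference among the 7 stages called the same 3 genes (31.2% of all genes). Without P15 replicate 1 it also called Trib3 (adjusted p = 0.0215) and Phgdh (adjusted p = 0.0181), and without P15 replicate 2 Trib3 (adjusted p = 0.0203).

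Other genes of the pathway, from lists assembled with earlier results of these data known, moved in both directions in bulk between E17.5 and P60, while the median change over all genes was -0.03. Of all genes tested, 29.1% were called in either direction. Of 25 other ATF4 targets, 9 rose and 1 fell (median log2 change 0.52). Nupr1, a stress-induced chromatin protein, went from a mean of 7.77 to 193 CPM (log2 change 4.62, adjusted p = 0.000156). Its P60 libraries differed widely (SD 142 CPM), and it was not called with the summed acinar level as a covariate. Stc2, a secreted glycoprotein, fell from 23.2 to 2.25 CPM (-3.37, adjusted p = 0.000209), and the tRNA export factor Xpot rose by 0.77 (adjusted p = 0.000607). Among 6 bZIP partners and related factors, 2 rose: Nupr1, listed here as well, and Cebpg, a C/EBP factor that pairs with ATF4 (37 to 99.4 CPM, adjusted p = 0.000134). Of 20 cytosolic aminoacyl-tRNA synthetases, which charge tRNAs with amino acids, 8 rose and 2 fell, and Cars rose by 2.13 (adjusted p = 0.000297), Nars by 1.22 (adjusted p = 0.000184) and Mars by 1.13 (adjusted p = 9.61e-05).

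Of 15 other enzymes of serine, glycine and one-carbon metabolism, 4 rose and 3 fell, with a median of 0.02. Those with the smallest p were Cbs, which joins serine and homocysteine (10.1 to 87.6 CPM, adjusted p = 4.91e-05), and the mitochondrial folate enzymes Mthfd2 (35.5 to 91.2 CPM, adjusted p = 0.000131) and Aldh1l2 (4.58 to 67.1 CPM, adjusted p = 0.000171). Of 14 eIF2α kinases, eIF2B subunits and phosphatase genes, 4 rose and 1 fell. The haem-regulated kinase Eif2ak1 rose by 0.64 (adjusted p = 0.00408) and the ER kinase Eif2ak3 (PERK) by 0.75 (adjusted p = 0.00864), while the eIF2B subunit Eif2b1 fell by 0.59 (adjusted p = 0.0101). Of 15 ER chaperones and folding factors, 5 fell and 1 rose (median -0.66). Pdia4 went from 785 to 284 CPM (adjusted p = 0.00124) and Creld2 from 261 to 98.9 (adjusted p = 0.00114), and the factor that rose was Xbp1, a transcription factor of the ER stress response (0.88, adjusted p = 0.00169). Of 10 mitochondrial chaperones and proteases, Hspa9 alone was called (0.74, adjusted p = 0.0015), and of 5 paralogues of the members none was. Fewer genes were called with the summed acinar level as a covariate. That fit called 0 up and 1 down among the other ATF4 targets (median 0.66), 3 up and 0 down among the synthetases (median -0.01), 2 up and 1 down among the serine, glycine and one-carbon enzymes, 1 up and 0 down among the ER chaperones (median -0.52), and none among the bZIP factors or the eIF2α group.

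In single β cells, summed by batch, Atf4, Atf5 and Asns rose between E17.5 and P60 (3 of 9 members, beside 6.97% of the 18537 genes tested). The fit included the picking method, and n was 3 batches at E17.5 and 5 at P60.

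**Figure D2:**
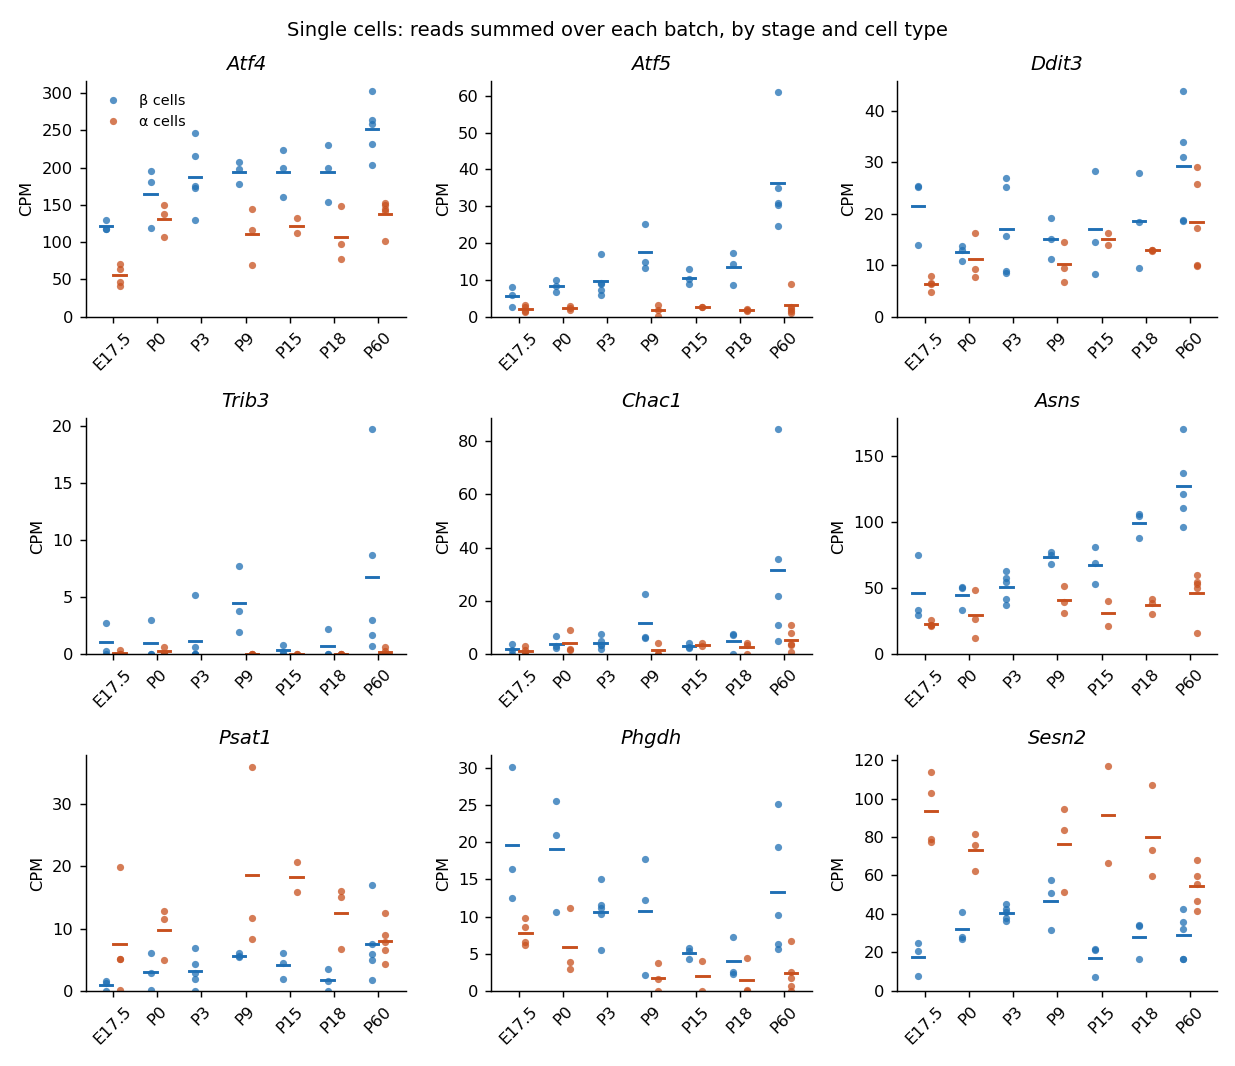
Level of each gene in single-cell batches (TMM-scaled CPM, y axis) by stage (x axis), with a point for each batch of β cells (blue) or α cells (orange) and a dash for the mean. Atf5 and Asns in β batches at P60 lie above all β batches at E17.5, and Sesn2 in α batches lies mostly above β batches.

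Atf5 was at 2.73, 5.8 and 8.12 CPM in the E17.5 β batches and at 35, 30.9, 61, 24.5 and 30.3 in those of P60. Every P60 batch exceeded every E17.5 batch, and the level rose 6.72-fold (log2 change 2.75, SE 0.54, adjusted p = 0.00293). Asns was at 29.1, 33.5 and 75.2 CPM at E17.5 and at 121, 96.1, 171, 111 and 137 at P60, again without overlap (log2 change 1.46, SE 0.34, adjusted p = 0.00752). Its intermediate means ran from 44.8 CPM at P0 through 50.9 at P3, 73.5 at P9 and 67.7 at P15 to 99.7 at P18. The call of Asns ended without E17.5 batch 1 (adjusted p = 0.0893) or E17.5 batch 2 (adjusted p = 0.0732), and also when batches of under 10 cells were left out (adjusted p = 0.11).

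Atf4 was at 118, 118 and 130.0 CPM in E17.5 β batches and at 303, 204, 232, 258 and 264 at P60 (log2 change 1.03, SE 0.21, adjusted p = 0.0019). The groups did not overlap on this scale, but the direction depended on the scaling. As a mean over cells of log2(TPM + 1), the difference was -0.23 (adjusted p = 0.551), where the median of all genes shifted to -0.29 against -0.01 in the TMM-scaled fit. Without TMM scaling, the mean over cells went from 154 CPM to 190.4 between these stages, a ratio of 1.24. For Atf5 the unscaled ratio was 3.39, and its call held on the log2(TPM + 1) scale (1.36, adjusted p = 0.00262). For Asns the unscaled ratio was 1.57 and its log2(TPM + 1) difference 0.54 was not called (adjusted p = 0.493). Within the FACS-sorted batches alone, with 1 batch at E17.5, none of the 3 was called (adjusted p = 0.303 for Atf4, 0.555 for Atf5 and 0.775 for Asns).

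Chac1 had the highest fitted change, 4.07 on the log2 scale, with wide error (SE 1.31, adjusted p = 0.129). Batches stood at 0, 1.41 and 3.81 CPM at E17.5 and at 35.5, 4.62, 84.5, 10.7 and 21.8 at P60. The groups did not overlap, but the P60 batches differed widely among themselves. DESeq2 called it (4.09, adjusted p = 0.0121), as did the fit of β batches alone (4.26, adjusted p = 0.0197) and the mean of log2(TPM + 1) (1.51, adjusted p = 0.000293). Trib3 stood at 8.66, 2.96, 19.7, 0.671 and 1.68 CPM at P60 and at 0, 0.263 and 2.73 at E17.5, overlapping groups (adjusted p = 0.459). Psat1 stood at 0, 1.58 and 1.3 CPM at E17.5 and 5.94, 4.97, 17, 1.78 and 7.6 at P60 (log2 change 2.89, SE 1.12, adjusted p = 0.182; DESeq2 2.93, adjusted p = 0.0412). Batch 3 of P60 was the highest β batch of that stage for Atf5, Trib3, Chac1, Asns, Psat1, Phgdh and Sesn2, and without it the calls of Atf4, Atf5 and Asns held.

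Ddit3 in β batches had means of 21.5 CPM at E17.5 and 29.2 at P60 (log2 change 0.42, adjusted p = 0.69; -0.51 on the log2(TPM + 1) scale), and Phgdh of 19.7 and 13.3 (-0.73, adjusted p = 0.81), both with overlapping batches. The β means of Sesn2 went from 17.6 CPM (E17.5) to 40.6 (P3) and 46.9 (P9), and stood at 16.9 (P15) and 28.8 (P60). Sesn2, Atf4, Atf5 and Asns were the 4 members called in the test of any stage difference in β cells (adjusted p = 0.0359, 0.0376, 0.00389 and 0.00457, beside 7.09% of all genes). The calls of Atf4 and Sesn2 in that test held in 17 and 18 of 25 fits that left out 1 batch. That of Atf4 ended without E17.5 batch 1, 2 or 3, P0 batch 4 or P60 batch 1, 3, 4 or 5 (adjusted p = 0.0577 to 0.0992). That of Sesn2 ended without E17.5 batch 1 or 2, P3 batch 1 or 4, P9 batch 2 or 3 or P15 batch 3 (adjusted p = 0.0527 to 0.086). No member was called with edgeR or DESeq2 from E17.5 to P0 (0.0809% of all genes, 1 member at an unadjusted p under 0.05), from P0 to P9 (0.372%, 0 members) or from P9 to P60 (0.626%, 3 members).

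Per cell, the share of β cells with at least 1 Chac1 read went from 4 of 57 (7.02%) at E17.5 to 62 of 129 (48.1%) at P60, and was 23.1% or lower at all other stages. Thinned to the same 520690 reads per cell, the share at P60 was 45%. In the 5 P60 batches it ranged widely, with 18 of 39, 3 of 14, 24 of 29, 8 of 26 and 9 of 21 cells. The 3 highest P60 cells held 32.4% of the summed Chac1 CPM, and for Trib3, seen in 20 of 129 cells (15.5%), the 3 highest held 55.6%. Atf5 reads were found in 68.4% of β cells at E17.5 and 89.1% at P60, Asns in 87.7% and 98.4%, and Atf4 in 100.0% at both.

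**Figure D3:**
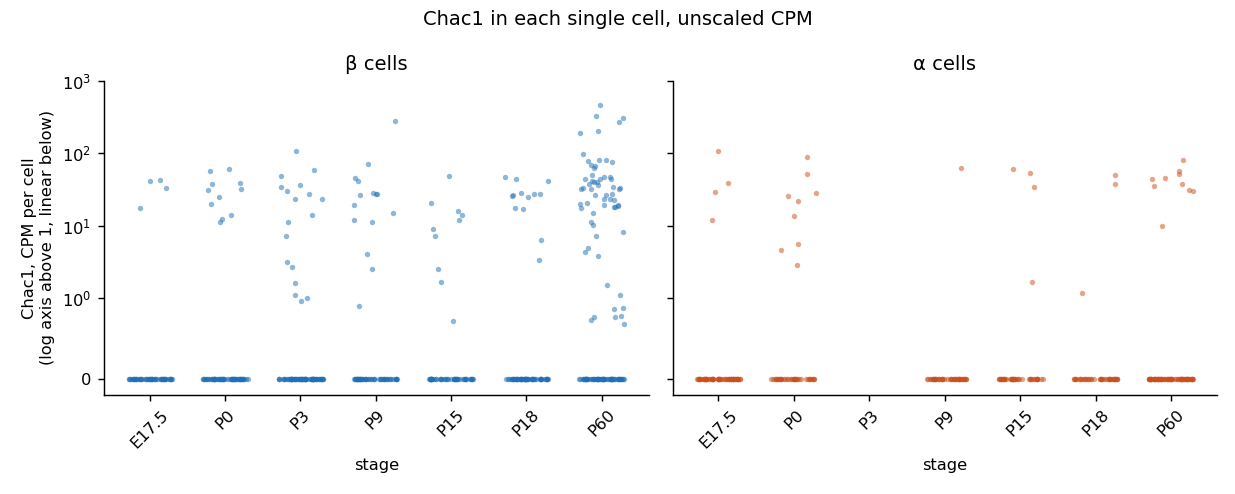
Chac1 level in each single cell (CPM without TMM scaling, y axis, logarithmic above 1 and linear below) by stage (x axis) for β cells (left) and α cells (right), each point being a cell. Most cells sit at 0 at every stage, and reads are most frequent in β cells at P60, where 62 of 129 cells have one.

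Reads of 8 or all 9 members were present in 14 of 129 β cells at P60, in 1 cell each at P0, P3 and P9, and in no other β or α cell. The median β cell had reads of 5 members at both E17.5 and P60. Within P60 β batches, log2(CPM + 1) of Chac1 went with that of Atf4 (r = 0.50 across 129 cells, batch means removed), Ddit3 (0.35) and Trib3 (0.33), and Atf4 with Ddit3 (0.45). Other pairs were weaker there, such as Atf4 with Asns (0.23), Psat1 (0.21), Sesn2 (0.13) and Phgdh (0.11). Over all 538 β cells Atf4 had 0.25 with Chac1 and 0.26 with Ddit3, and over 328 α cells 0.08 and -0.02. Cells of a batch share their library preparation, and these correlations describe sparse counts without a test.

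In single α cells, Atf4 and Ddit3 rose between E17.5 and P60, and Asns narrowly passed the threshold (3 of 9 members, beside 9.97% of all genes; n = 4 and 5 batches). Over the same interval 9 of 13 proliferation genes fell in α cells (median -5.06), the pancreatic polypeptide gene Ppy was at means of 755 and 6254 CPM (not called), and the summed mesenchymal markers were at 83.7 and 7.55 CPM, with 2 of the 5 tested called lower. Their part in the results was not tested. Atf4 was at 64, 70.5, 41.7 and 46.8 CPM in E17.5 α batches and at 150.2, 142, 153, 101 and 144 at P60, without overlap (log2 change 1.38, SE 0.20, adjusted p = 1.18e-05). That call held in 10 alternative fits, including the mean of log2(TPM + 1) (0.92, adjusted p = 0.000991, where the median of all genes was -0.42), and with each batch left out. Its rise lay early: P0 batches were already at 107, 138 and 149.8 CPM, and Atf4 was the 1 member called from E17.5 to P0 (log2 change 1.34, SE 0.23, adjusted p = 0.00704, beside 0.248% of all genes). The P0 call ended among FACS-sorted batches (adjusted p = 1), in a fit of α batches alone (0.205) and without batches of under 10 cells (0.128).

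Ddit3 was at 6.46, 6.34, 4.86 and 7.82 CPM in α cells at E17.5 and at 17.3, 10.1, 29.1, 9.9 and 25.7 at P60, without overlap (log2 change 1.55, SE 0.40, adjusted p = 0.0125). On the log2(TPM + 1) scale its difference was not called (0.41, adjusted p = 0.526), nor among manually-picked batches (0.559) or without batches of under 10 cells (0.0956). Asns was at 20.9, 21.5, 22.1 and 25.4 CPM at E17.5 and at 49.6, 54.6, 52.8, 59.9 and 15.4 at P60, where batch 5 lay below all others (log2 change 1.01, SE 0.32, adjusted p = 0.0403). Its call ended without any of the 4 E17.5 batches or P60 batches 1 to 4 (adjusted p = 0.0687 to 0.0838) and in 5 of 10 alternative fits, and the sign turned on the log2(TPM + 1) scale (-0.12, adjusted p = 0.878).

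Sesn2 in α cells was at 103, 114, 77.3 and 78.8 CPM at E17.5 and lower in all P60 batches, at 55.4, 46.8, 67.8, 59.9 and 41.6 (log2 change -0.82, SE 0.32, adjusted p = 0.0979). On the log2(TPM + 1) scale the fall was called (-2.47, adjusted p = 4.61e-08), as was that of Phgdh (-1.24, adjusted p = 0.00049). In the TMM-scaled fit Phgdh, at means of 7.79 and 2.35 CPM, was not called (-2.05, SE 1.03, adjusted p = 0.232). Atf5 (2.16 to 3.25 CPM), Chac1 (1.07 to 5.3), Psat1 (7.54 to 8.04) and Trib3 (0.0801 to 0.175) overlapped between E17.5 and P60 in α batches and were not called. No member was called in α cells with edgeR or DESeq2 from P0 to P9 (1.07% of all genes) or from P9 to P60 (0.847%), and none had an unadjusted p under 0.05. In the test of any stage difference among α cells Atf4 was called (adjusted p = 0.000294, beside 10.5% of all genes). Without P18 batch 2 this test also called Phgdh (adjusted p = 0.0274), and without P60 batch 5 Asns (adjusted p = 0.0429).

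**Figure D4:**
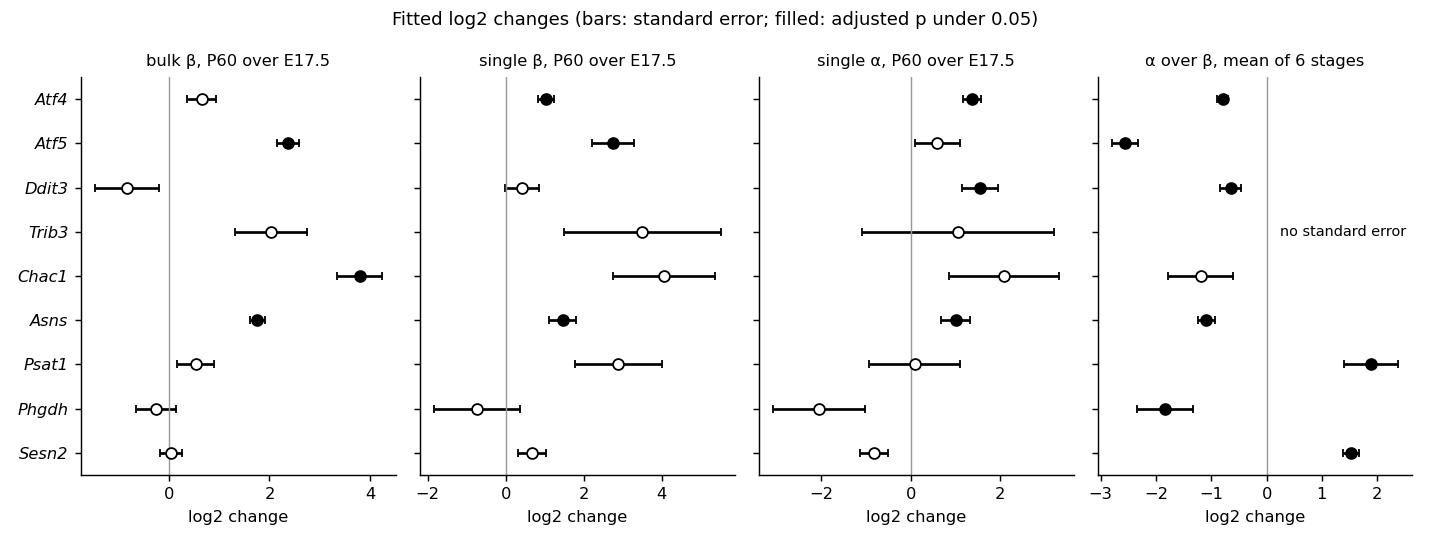
Fitted log2 change of each gene (x axis) in bulk β cells, single β cells and single α cells from E17.5 to P60, and of α over β cells averaged over the 6 shared stages, with bars for the standard error and filled points for an adjusted p under 0.05. Atf4 and Asns lie to the right in the first 3 panels, and in the last Psat1 and Sesn2 lie to the right and the other 6 plotted genes to the left. No point is drawn there for Trib3, for which the fit gave no usable standard error.

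Between cell types, 8 of 9 members differed when averaged over the 6 shared stages (28.8% of all genes called). Atf4, Atf5, Ddit3, Trib3, Asns and Phgdh were lower in α cells, and Psat1 and Sesn2 higher. Markers of other cell types were also called higher in α cells over these stages. They were 6 of 10 acinar, 4 of 5 erythroid and 2 of 5 tested mesenchymal genes, Ppy and the epsilon-cell marker Ghrl. Their part in the differences between cell types was not tested. Atf5 ranged from 0.229 to 8.9 CPM over 20 α batches, with a mean of 2.39, and averaged 17.4 in β batches of the same stages, a 5.88-fold difference (log2 change -2.56, SE 0.24, adjusted p = 6.22e-10). Asns was 2.13-fold lower in α cells (log2 change -1.09, SE 0.15, adjusted p = 4.4e-07), Atf4 1.73-fold lower (-0.79, SE 0.10, adjusted p = 1.86e-08) and Ddit3 1.57-fold lower (-0.65, SE 0.19, adjusted p = 0.00945). Within FACS-sorted or manually-picked batches alone, each kept its direction, and all but Ddit3 kept the call (Ddit3 adjusted p = 0.145 and 0.418).

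Trib3 reads were found in 5 of 328 α cells and in 44 of 538 β cells. In α cells at P9, P15 and P18 no read was found in 45, 45 and 44 cells, which allows shares of up to 6.67%, 6.67% and 6.82%. Because those groups were at 0, no fold is given, and its call (adjusted p = 0.000626) ended without β P0 batch 1 or β P18 batch 2 (adjusted p = 1 in both), and within FACS-sorted or manually-picked batches alone. Chac1 averaged 3.06 CPM in α and 11.6 in β batches, and was not called (log2 change -1.19, 95% interval -2.35 to -0.04, adjusted p = 0.145). That interval came from the standard error and not from the test, in which the unadjusted p was not under 0.05. Without batch 4 of α P9, Chac1 was called (-2.48, adjusted p = 0.00597). At P60, 12% of α cells (10 of 83) had a Chac1 read, against 48.1% of β cells.

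The serine synthesis genes differed in opposite directions. Psat1 was 3.71-fold higher in α cells (means 11.5 and 4.19 CPM, log2 change 1.89, SE 0.49, adjusted p = 0.00361), and Phgdh 3.59-fold lower (3.73 and 12.1 CPM, -1.84, SE 0.50, adjusted p = 0.0054). Within manually-picked batches alone neither passed the threshold (adjusted p = 0.0583 and 0.091), and within FACS-sorted batches Psat1 did not (0.0814). Psat1 reads were present in 71 of 328 α cells and 71 of 538 β cells. At P60 alone Psat1 hardly differed, at means of 8.04 CPM in α and 7.46 in β batches (log2 change 0.10, not called). There 16.9% of α cells and 20.2% of β cells had a Psat1 read. Sesn2 was 2.89-fold higher in α cells (means 75.9 and 28.5 CPM, log2 change 1.53, SE 0.15, adjusted p = 3.69e-10). All 65 α cells at E17.5 had a Sesn2 read, against 57.9% of β cells, and at P9 the shares were close, at 77.8% and 76.9%. On the log2(TPM + 1) scale all 8 differences kept their direction and call, and Chac1 was called lower as well (-0.35, adjusted p = 0.0474).

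**Figure D5:**
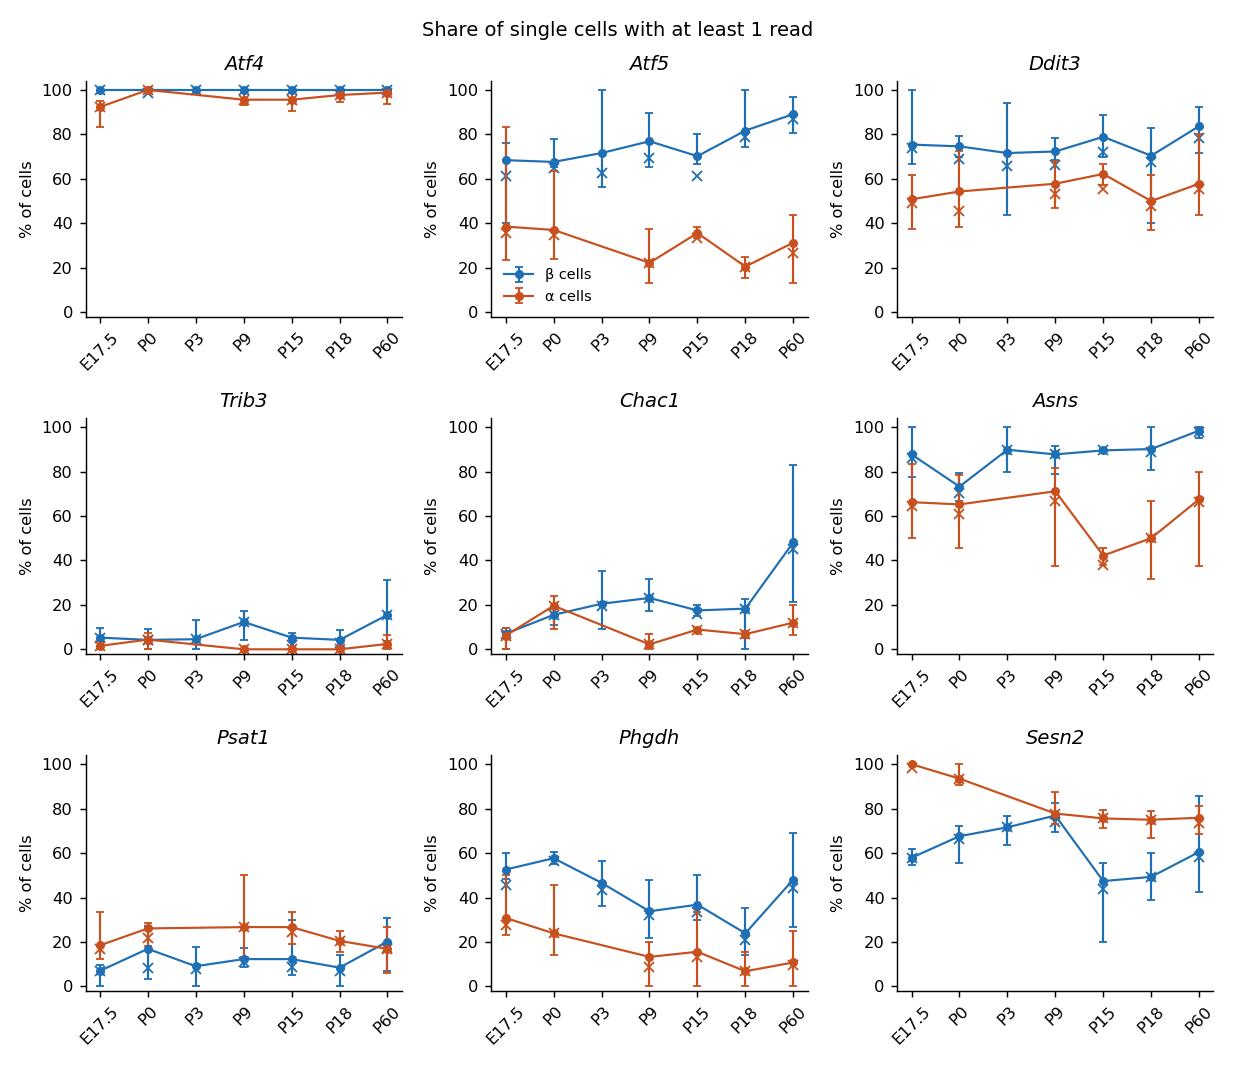
Share of single cells with at least 1 read of each gene (percent, y axis) by stage (x axis) in β cells (blue) and α cells (orange), with bars for the lowest and highest batch and crosses for the share after thinning to equal depth. Chac1 reached 48.1% of β cells at P60, and Sesn2 was found in all α cells at E17.5.

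At E17.5, 3 members differed between the cell types (8.31% of all genes called): Atf4 (log2 change of α over β -1.22, SE 0.23, adjusted p = 0.000231), Ddit3 (-1.79, SE 0.46, adjusted p = 0.00925) and Sesn2 (2.42, SE 0.36, adjusted p = 3.21e-05), each without overlap between batches. At P60, 4 members did (12.9% of all genes): Atf4 (-0.86, SE 0.18, adjusted p = 0.000875), Atf5 (-3.59, SE 0.47, adjusted p = 3.09e-06), Asns (-1.47, SE 0.29, adjusted p = 0.000481) and Sesn2 (0.92, SE 0.30, adjusted p = 0.0368). The call of Atf4 at P60 did not hold on the log2(TPM + 1) scale (adjusted p = 0.912). That of Sesn2 at P60 ended without β batch 4 or 5 or without α batch 1, 3 or 4 (adjusted p = 0.0651 to 0.131). At E17.5, Asns was called too without β batch 1 (-1.27, adjusted p = 0.0383). The call of Ddit3 at E17.5 ended without batches of under 10 cells (-1.71, adjusted p = 0.147). Among FACS-sorted batches, with 1 β batch at E17.5, the change was -1.18 for Atf4 and -1.28 for Ddit3.

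Whether the change from E17.5 to P60 itself differed between cell types was tested as an interaction. None of the 9 members was called with edgeR (2 had an unadjusted p under 0.05; 3.67% of all genes called), and DESeq2 called Atf5 and Sesn2. The interaction was -2.14 for Atf5 (95% interval -3.61 to -0.68, adjusted p = 0.116; DESeq2 adjusted p = 0.0378) and -1.50 for Sesn2 (95% interval -2.42 to -0.58, adjusted p = 0.0718; DESeq2 adjusted p = 0.0196), both toward a smaller rise or a fall in α cells. Atf5 was called without α P60 batch 1 (-2.88, adjusted p = 0.0141), and Sesn2 without β E17.5 batch 3 (adjusted p = 0.037), β P60 batch 4 (0.0419) or β P60 batch 5 (0.0474). For Atf4 it was 0.35 (95% interval -0.22 to 0.92) and for Asns -0.45 (95% interval -1.36 to 0.46). On the log2(TPM + 1) scale the interaction was called for Atf4 (1.15, adjusted p = 0.0207), toward a higher change in α cells. It was also called there for Atf5 (-1.92, adjusted p = 0.00692) and Sesn2 (-2.51, adjusted p = 0.000186).

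The same pathway lists were counted in single cells. Their counts stand beside shares of all genes called in either direction of 6.97% in β cells and 9.97% in α cells from E17.5 to P60, and 28.8% between the cell types over the shared stages. In β cells from E17.5 to P60, 10 of 15 ER chaperones fell and none rose (median -0.92). Hspa5, the main ER chaperone BiP, went from 2931 to 1212 CPM (adjusted p = 7.08e-05), Hsp90b1 from 1841 to 832 (adjusted p = 1.24e-05) and Pdia4 from 823 to 269 (adjusted p = 1.17e-06). In α cells 7 of 15 rose and 1 fell (median 0.62) in the TMM-scaled fit, but on the log2(TPM + 1) scale none rose and 5 fell (median -0.43, beside -0.42 over all genes). The genes that rose in the TMM-scaled fit included Dnajc3 (70.4 to 169.5 CPM, adjusted p = 2.82e-06), Pdia3 (489.6 to 848, adjusted p = 7.74e-05) and Dnajb9 (67.7 to 168, adjusted p = 0.000744). All 15 were lower in α than in β cells over the shared stages (median -1.34), led by Dnajc3 (122 against 352 CPM), Sdf2l1 (32.6 against 275) and Pdia3 (682 against 1427). On the log2(TPM + 1) scale the β fall and the difference between cell types kept their direction, with 14 of 15 falling in β cells (median -2.14) and 13 of 15 lower in α cells (median -0.83).

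Among single β cells, 23 other ATF4 targets could be tested, with 1 gene up and 1 down (1 up and 6 down on the log2(TPM + 1) scale). Nupr1 was at 0 in all 3 E17.5 batches and at a mean of 33.5 CPM (SD 32.1) at P60 (adjusted p = 0.00118). Ppp1r15a, the stress-induced subunit that directs dephosphorylation of eIF2α, fell from 74.3 to 29.7 CPM (adjusted p = 0.00578). In α cells, 3 rose and 1 fell (1 up and 9 down on the log2(TPM + 1) scale): the rises were the amino acid transporter chain Slc3a2 (90.5 to 259 CPM, adjusted p = 3.77e-08), the proline synthesis enzyme Pycr1 (8.43 to 32.6, adjusted p = 0.00207) and the mitochondrial enzyme Pck2 (33.9 to 71, adjusted p = 0.0202). Between cell types 6 were lower in α cells and none higher, while on the log2(TPM + 1) scale 4 were lower and 4 higher. Examples were Vldlr at 4.3 against 35.2 CPM (adjusted p = 1.41e-08), Ero1l at 33.5 against 56.8 (adjusted p = 2.9e-06) and Sqstm1 at 338 against 405 (adjusted p = 0.00124).

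Of the 20 synthetases, 4 rose and 1 fell in β cells (1 up and 12 down on the log2(TPM + 1) scale), where Cars went from 14.7 to 62.5 CPM (adjusted p = 0.0126), Nars from 78.5 to 150.0 (adjusted p = 0.00204) and Gars from 361 to 202 (adjusted p = 0.000293). In α cells 2 rose and 4 fell (0 up and 16 down on the log2(TPM + 1) scale), with Gars (310.0 to 175 CPM), Hars (36.3 to 12) and Rars (94.9 to 52.7) falling. Over the shared stages 4 were higher and 9 lower in α cells, against 7 higher and 6 lower on the log2(TPM + 1) scale. Cbs was the 1 called of 15 serine, glycine and one-carbon enzymes in β cells (1.43 to 56.9 CPM, adjusted p = 0.00839). In α cells the 2 called (9 on the log2(TPM + 1) scale, 1 up and 8 down) were lower at P60, Gcsh (157 to 41.9 CPM, adjusted p = 6.8e-05) and Shmt1 (18.7 to 1.13, adjusted p = 0.0313). Over the shared stages 2 were higher and 5 lower in α cells (5 and 4 on the log2(TPM + 1) scale), among them the glycine cleavage genes Gldc (10.7 against 1.35 CPM) and Gcsh (82.1 against 42.8), both higher, and Mthfd1 (67.4 against 121), lower. Acinar markers summed to a mean of 122 CPM in P60 α batches, 111 in E17.5 α batches and 634 in P9 α batches. In β batches of the same stages they summed to 13.3, 4.25 and 82.9 CPM.

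Patterns most like each member were ranked by Pearson's r of log2(CPM + 1), as a description over points that share stage, cell type and depth. Over the 45 batches, Atf5 was most like Gpr158, Car10 and Ucn3 (r = 0.86 each), Atf4 most like Tspan13 (0.86), Chchd10 (0.81) and Selk (0.80), Asns most like Creg1 (0.81), and Sesn2 most like Dpp6 (0.82). Ddit3 was most like Atf4 itself (0.69), and Chac1 most like Xbp1 (0.64) and Atf4 (0.63). Over the 14 bulk libraries, Atf5 was most like Dnaja4 (0.97) and the seryl-tRNA synthetase Sars (0.96), Chac1 most like Ang and Slc2a13 (0.94 each), Asns most like Pcca (0.96), and Atf4 most like Tob1 (0.87). Among the members, the highest values in bulk were Atf5 with Chac1 (0.91), Atf5 with Asns (0.91) and Chac1 with Asns (0.82). Psat1 and Phgdh, which act in sequence, had 0.52 in bulk but -0.48 over the 45 batches.

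Between FACS-sorted and manually-picked batches no gene was called (0% of all genes), and of the members Atf4 had an unadjusted p under 0.05 (log2 change 0.20, adjusted p = 0.488). DESeq2 called none and gave no adjusted p for 6 of the 9. The 2 enriched batches (9 cells at P0 and 12 at P9) against unselected β batches of those stages called none with edgeR or DESeq2 (0.245% of all genes). Atf5 had an unadjusted p under 0.05 there, at means of 5.63 CPM in enriched and 13.1 in unselected batches (log2 change -1.41, 95% interval -2.64 to -0.18, adjusted p = 0.597).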

How the data were processed

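Per the submitters' processing notes, reads were handled with TopHat2 2.1.0, HTSeq 0.6.0 and DESeq 1.20.0 on GRCm38 (mm10). The deposited tables hold raw read counts per gene, as whole numbers, for bulk libraries and single cells. The counting's strand setting is not given in the sources used here, and the deposited TPM files were not used as the main measure. Spike-in rows (92) were left out of library sizes. Counts of cells were summed per batch, the labelled preparation. Tests used edgeR 4.0.16 (R 4.3.3; quasi-likelihood, TMM scaling, filterByExpr) over all genes, with Benjamini-Hochberg adjustment and a threshold of 0.05: 16086 genes in bulk, 18537 in batches, with the picking method as a covariate. The 9 members and all gene lists were chosen with earlier results of these data known. The genes named are all members, the 3 called genes of each list, with a minimum of 5 CPM, whose p was smallest, and the 3 most similar patterns per member among genes at 10 CPM or more. On simulated counts the fits recovered, of 100 genes changed 4-fold, 75 in bulk β and 26 in single β cells (P60 against E17.5) and 67 for α against β, and of 100 changed 2-fold 29, 7 and 40. Alternatives were no filter, DESeq2 1.42.0, a replicate block, acinar or Xist covariates, per-cell log2(TPM + 1) with limma 3.58.1, subsets of batches, and each library left out.
Gene reads per bulk library ranged from 10.26 to 21.44 M (1e+06 reads) and per batch from 5.96 to 49.14 M. Shares of cells are plain percentages and were not tested. The upper limits given where no cell had a read cover counting error only. For the thinned shares each cell was reduced to 520690 reads, the depth of the shallowest cell.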

Additional observations from a re-analysis of the deposited data

Results flagged for a closer look

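Within groups of 4 or 5 batches, 1 batch stood apart from the rest in 6 of the 36 cases examined, where chance gives about 1 in 20. In β cells these were Trib3 at P3, where batch 3 was highest at 5.14 CPM, and Atf5 at P60, where batch 3 was highest at 61 CPM. In α cells they were Trib3 at E17.5 (batch 2 highest, 0.32 CPM), Atf5 at P60 (batch 1 highest, 8.9 CPM), Atf4 at P60 (batch 4 lowest, 101 CPM) and Asns at P60 (batch 5 lowest, 15.4 CPM). Trib3 was read in 4 of 88 β cells at P3 and 1 of 65 α cells at E17.5, and most of those batches had no read. For such genes the rate of 1 in 20 need not hold, so no excess can be read from the 6 cases. The 4 Ngn3-GFP cells at P0, which entered no comparison, had a mean of 354 CPM of Atf4 without TMM scaling, above the highest batch mean of unselected β and α cells on the same scale (261 CPM). Hormone transcripts take up part of the unscaled CPM in β and α cells, and their share in these 4 cells was not compared. With TMM scaling β batches reached 303 CPM, so a higher Atf4 level in Ngn3-GFP cells cannot be read from this.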

How the results depend on the processing

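Of 3948 results for single members under alternatives, 88 lost the call, 63 gained it, and in 3 a value called in either fit changed sign, all on the log2(TPM + 1) scale: Atf4 in β cells, P60 against E17.5 (-0.23), Asns in α cells, P60 against E17.5 (-0.12), and Sesn2 in α cells, P9 against P0 (-1.24). The other 3794 stayed on their side of the threshold. Among them 139 that were called in neither fit had the opposite sign: 14 on the log2(TPM + 1) scale, such as Ddit3 in β cells and Atf5 in α cells, P60 against E17.5 (-0.51 and -0.56), 7 with the acinar covariate, such as Ddit3 in bulk, P60 against E17.5 (0.39), 25 with 1 picking method, 65 without 1 library or batch, and the rest in other fits. For these and the counts below the cause was not tested. Counts of members called, out of 9, moved as follows, with smaller relative moves not all listed. Bulk, no low-count filter: any stage 7, P60 against E17.5 6, P0 against E17.5 4, P9 against P0 4. Bulk, any stage, DESeq2: 5. Bulk, DESeq2, P60 against E17.5 and P60 against P9: 4 each, from 3. Bulk, P9 against P0, acinar covariate: 0. Single β cells, any stage: 2 without batches of under 10 cells, 0 with FACS-sorted and 0 with manually-picked batches. β P60 against E17.5: 5 with DESeq2 and 0 with FACS-sorted batches. On log2(TPM + 1), P9 against P0 gave 1 in β and 2 in α cells. Single α cells, any stage: DESeq2 2, log2(TPM + 1) 3, FACS-sorted 0, manually-picked 0. α P60 against E17.5: 1 without small batches and 1 with manually-picked batches. α P0 against E17.5: 0 without small batches, 0 with FACS-sorted batches and 0 with α batches alone. α against β: manually-picked 4, and at P60 FACS-sorted 1. With DESeq2, α against β gave 6 at P60, from 4, and 4 at E17.5, from 3. With FACS-sorted batches the mean over shared stages lost Ddit3, Trib3 and Psat1 and gained Chac1. Interaction: DESeq2 2, log2(TPM + 1) 3, manually-picked 1. With each library left out in turn, counts ranged from 3 to 5 (bulk, any stage), 3 to 4 (bulk P60 against E17.5), 0 to 0 (bulk P0 against E17.5), 1 to 1 (bulk P9 against P0), 2 to 3 (bulk P60 against P9), 2 to 4 (β, any stage), 2 to 3 (β P60 against E17.5), 1 to 2 (α, any stage), 2 to 3 (α P60 against E17.5), 1 to 1 (α P0 against E17.5), 7 to 9 (α against β), 3 to 4 at E17.5 and at P60, and 0 to 1 (interaction). Replicate numbers were not treated as pairs in the main fits. Of 21 bulk stage pairs, 7 correlated above 0.1 (r from -0.139 to 0.427 over all 21), and of 217 batch pairs 1 did. In bulk, Xist was high in replicate 1 and low in replicate 2 at P0 (242 and 1.56 CPM), P3 (140.1 and 0.956) and P9 (449 and 0.76). At those stages replicate number and sex cannot be told apart. With the replicate block the interaction gave 1 call (Sesn2) against 0, with no other count changed. Thinning moved 6 of 117 shares of cells beyond the spread of batches, and unscaled means moved 23 of 117 levels. At single-cell depth, Trib3, Chac1 and Psat1 are limited by the few cells with reads.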

Other observations

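The 26 cells labelled as expressing several hormones belonged to no comparison. Atf4 was read in all 26 cells at a mean of 166 CPM without TMM scaling, Asns in 24 (45.7 CPM), Ddit3 in 21 (19.6 CPM) and Sesn2 in 21 (63.9 CPM). Chac1 was read in 2 and Trib3 in 1. In the 4 Ngn3-GFP cells, in which the reporter marks cells that express or recently expressed the endocrine progenitor factor Neurog3, Sesn2 was read in all 4 (mean 153 CPM), Asns in 3 (65.2 CPM) and Trib3 in none.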
